A study of Mus musculus with 3 samples.

Results

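Malat1, Neat1, Gm42418, Gm26917 and AY036118 were followed as a set of abundant noncoding and rRNA-like transcripts in single-cell RNA sequencing of mouse peripheral blood mononuclear cells (PBMCs). They were picked by symbol, and AY036118 entered because it was among the largest falls from the young library. All 5 of the 5 members were found among the 32285 rows of the count matrices, each under 1 gene identifier. The young mice were 8 weeks old with no treatment in the labels, the aged mice were 16 months old and carry no treatment in the labels, and the aged-GA mice were 16 months old and received glycyrrhizic acid (GA), a licorice compound, for 1 month. Each group is 1 library made with a 3′ poly(A) kit. The study names several mice per group, but the labels tie no cell to a mouse, so age or treatment cannot be told apart from the library. By the study's methods all mice were female C57BL/6, the young ones purchased and the aged ones reared in the laboratory, so age and origin cannot be told apart either. GA was given by tail vein, and the methods give a control group saline (PBS) by that route without tying it to one of these libraries. With 1 library per group, no difference between groups has a replicate check. Intervals below are exact Poisson 95% intervals for levels, cover counting error only, and say nothing of variation between mice.

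Most transcripts counted in such libraries are messenger RNAs, which leave the nucleus to be translated. In contrast, Malat1 is a long noncoding RNA kept in the nucleus at speckles, bodies rich in splicing factors, and Neat1 is the scaffold on which paraspeckles form. Both are neighbours on the same chromosome and are often used as signs of nuclear RNA in single-cell data. Gm42418, Gm26917 and AY036118 are annotated at a locus with ribosomal RNA sequence, and reads from rRNA can be assigned to such rows. Ribosomal RNA is made in the nucleolus and ends up in the cytoplasm as the core of the ribosome. A mature mouse red blood cell has no nucleus but can still hold RNA from its precursor.

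In GENCODE vM21 (GRCm38, the build mm10 named in the submitters' processing notes) all 5 members are lincRNA genes, and the longest transcript of each has 1 exon. Malat1 lies at chr19:5795690-5802672 on the minus strand with a transcript of 6983 bases. Neat1 lies at chr19:5824708-5845478, also on the minus strand, with a transcript of 20771 bases. The other 3 members share a short stretch of chromosome 17. Gm26917 lies at chr17:39843013-39846341 on the plus strand and Gm42418 at chr17:39846958-39848788 on the plus strand, with 616 bases between them. AY036118 lies at chr17:39847113-39848035 on the minus strand, wholly inside Gm42418. Its 923 bases are the exact reverse complement of bases 156 to 1078 of the Gm42418 transcript, which is 50.4% of Gm42418. RefSeq, on the same build, places Rn18s-rs5, a pseudogene of small-subunit ribosomal RNA that carries Gm42418 as a synonym, at chr17:39846354-39848202. All 923 bases of AY036118 and 1245 bases of Gm42418 fall within it, whereas Gm26917 ends 12 bases before it. Whether counting used strand was not given in the sources used here, and without strand the reads of Gm42418 and AY036118 could not be told apart where they overlap.

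**Figure D1:**
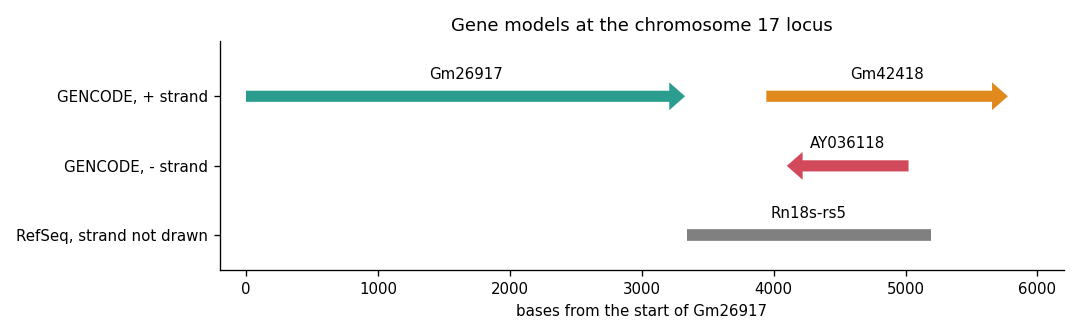
Gene models at the chromosome 17 locus, drawn to scale against distance in bases from the start of Gm26917. Arrows are the GENCODE models with their strand and the grey bar is the RefSeq pseudogene Rn18s-rs5. AY036118 lies inside Gm42418 on the opposite strand, and Gm26917 lies before both.

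The pairing of Gm42418 and AY036118 is shown at 1 end of the overlap, from the GENCODE transcripts, 5′ to 3′. Capitals mark the 60 bases of each that are the reverse complement of the other. The Gm42418 stretch is bases 136 to 215 of its transcript and the AY036118 stretch is its last 60 bases.
Gm42418: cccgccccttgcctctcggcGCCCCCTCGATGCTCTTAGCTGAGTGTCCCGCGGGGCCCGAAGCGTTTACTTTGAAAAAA
AY036118: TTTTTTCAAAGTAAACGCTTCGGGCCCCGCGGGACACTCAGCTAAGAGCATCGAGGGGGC

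A 3′ kit primes on stretches of A, so the window of 15 bases richest in A is shown for the longest transcript of each member, with up to 20 bases on either side. Capitals mark the window, which begins at base 6674 of Malat1, 11365 of Neat1, 424 of Gm42418, 2139 of Gm26917 and 778 of AY036118.
Malat1: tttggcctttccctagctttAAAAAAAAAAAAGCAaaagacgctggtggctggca
Neat1: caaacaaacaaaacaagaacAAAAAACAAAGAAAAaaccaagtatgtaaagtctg
Gm42418: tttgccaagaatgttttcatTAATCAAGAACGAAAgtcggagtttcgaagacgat
Gm26917: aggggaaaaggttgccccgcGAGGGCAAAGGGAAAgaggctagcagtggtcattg
AY036118: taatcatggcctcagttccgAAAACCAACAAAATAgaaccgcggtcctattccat
Malat1 and Neat1 each hold 13 A in their window, AY036118 holds 11, Gm42418 9 and Gm26917 7. The longest unbroken run is 12 A in Malat1 and 7 in Neat1, against 6 in Gm42418 and 4 in both Gm26917 and AY036118. The GC content is 42.5% in Malat1 and 47.3% in Neat1, and is 54.4% in AY036118, 60.2% in Gm42418 and 69.1% in Gm26917, in which A makes up 8.26% of bases. Whether priming at these stretches shaped the counts was not tested.

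The matrices held 10842, 16038 and 17332 barcodes for young, aged and aged-GA mice, with between 58894294 and 98155671 UMIs (unique molecular identifiers, one per captured molecule) per library. Kept cells had 200 genes or more, no more than 90% of the top gene number in their library and no more than 7.5% mitochondrial UMIs. They numbered 8851, 10238 and 12648. The libraries differ in quality and makeup. The mitochondrial share had a median of 5.06%, 1.86% and 3.79% over all barcodes of the young, aged and aged-GA libraries. Over kept cells it was 5.05%, 2.83% and 4.22%. Barcodes with under 200 genes and over 50% haemoglobin UMIs, called red cell barcodes here, numbered 941, 5460 and 3812. The libraries shared 50 to 62 barcodes in each pair. Kept cells were assigned to a class from fixed marker lists, a rule whose limits were set after the data were seen. T-gated cells numbered 5545, 2349 and 3887, B-gated cells 2266, 4158 and 5464, and NK-gated cells 313, 244 and 251. Monocyte-gated cells numbered 51, 1194 and 310, and neutrophil-gated cells 16, 864 and 594. Between 2.12% and 5.67% of kept cells stayed ungated. In T-gated cells the 9 T-cell markers summed to 6529, 5884 and 5787 UMIs per 1000000 UMIs (CPM) against 228, 327 and 468 CPM for the 8 B-cell markers, and no marker of either list was at 0. Red-cell markers summed to 5210, 37675 and 30931 CPM in T-gated cells of the same libraries, and with mitochondrial and haemoglobin UMIs left out of the denominator the same number of members passed each limit between libraries.

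Together the 5 members took 3.22%, 2.65% and 2.86% of the UMIs of young, aged and aged-GA kept cells. Malat1 stood at 17814, 15994 and 16795 CPM in young, aged and aged-GA kept cells, and Gm42418 at 10951, 9177 and 10577 CPM. The widest difference of either over kept cells was 1.19-fold, for Gm42418 in aged against young mice. AY036118 stood apart in young mice, at 3250 CPM against 835 and 796 CPM in the other libraries. Gm26917 went the other way, with 123 CPM in young mice against 305 and 310 CPM in aged and aged-GA mice. Neat1 was lowest in young mice at 83.6 CPM and reached 218 and 171 CPM in the other libraries.

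The 5 members had unlike patterns over the marker-gated classes, and Neat1 spread most widely. Among the 7 leukocyte classes, with red cells described apart, Neat1 was lowest in T-gated and B-gated cells. T-gated cells stood at 76.4 CPM in young (interval 73.3 to 79.6), 106 in aged and 91.2 in aged-GA mice. B-gated cells stood at 103, 105 and 106 CPM, which differ by less than their counting intervals. NK-gated cells stood at 261, 226 and 264 CPM, also within counting error of each other. Myeloid cells, which carry Neat1 at much higher levels, reached 539, 250 and 463 CPM in young, aged and aged-GA monocyte-gated cells and 984, 994 and 1642 CPM in neutrophil-gated cells. The highest level was in basophil-gated cells, with 2839 CPM (2639 to 3049) over 92 aged cells and 3557 CPM (3114 to 4045) over 20 aged-GA cells, too few young basophils being found. In these aged and aged-GA cells the neutrophil marker list summed to 5696 and 3818 CPM, beside 6099 and 6531 CPM for the basophil list. Of the 13 neutrophil markers 2 were at 0 in the aged and 8 in the aged-GA cells. The sums were not split by marker, so the amount of neutrophil RNA cannot be told from them. The part of neutrophil RNA in their Neat1 level was not tested. The highest leukocyte class was 27.1-fold above the lowest in aged and 39.0-fold in aged-GA mice. Kept red cells stood lower still in young and aged-GA mice, at 9.30 and 34.3 CPM. In aged mice they stood at 101 CPM, near the T-gated and B-gated levels. Haemoglobin took a median of 92.8%, 67.0% and 92.2% of their UMIs in young, aged and aged-GA mice. B-cell markers summed to 1391 CPM and neutrophil markers to 707 CPM in the aged ones. Neutrophil-gated cells exceeded T-gated cells 12.9-fold in young, 9.39-fold in aged and 18.0-fold in aged-GA mice, a contrast present in each library although young mice gave only 16 such cells.

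Malat1 varied far less between classes. It was highest in NK-gated cells, at 28987, 23024 and 26043 CPM in young, aged and aged-GA mice, followed by B-gated cells at 24661, 22207 and 23641 CPM. T-gated cells stood at 18341, 16582 and 16194 CPM, below B-gated cells in every library. Within T-gated cells, those with Cd8a or Cd8b1 and no Cd4 held less Malat1 than those with Cd4 alone, at 0.78, 0.69 and 0.64 times the CD4 level. The widest contrast within a class was among monocytes. Monocytes with Ace or Cd300e, markers of the patrolling subset, stood at 23346, 22254 and 23219 CPM in young, aged and aged-GA mice, whereas monocytes with Ly6c2 or Ccr2, markers of the classical subset, stood at 6589 and 7512 CPM in the aged and aged-GA libraries. The ratio between the subsets was 3.38 (3.33 to 3.42) in aged and 3.09 (3.01 to 3.18) in aged-GA mice. Young mice gave only 2 cells of the classical subset. Plasma-cell-gated cells, which secrete antibody, were low in Malat1, with 10872 CPM over 29 aged and 10908 CPM over 22 aged-GA cells. Depth differed here too, with a median of 3917 UMIs in patrolling and 9914.5 in classical monocytes of aged mice, and 16281 in aged plasma cells. Whether depth shaped these contrasts was not tested.

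Gm42418 kept within a factor of 1.47, 1.94 and 2.63 across the leukocyte classes of at least 20 cells in young, aged and aged-GA mice. T-gated cells stood at 12123, 9695 and 10985 CPM in young, aged and aged-GA mice and B-gated cells at 10803, 9748 and 11328 CPM. Plasma-cell-gated cells were lowest in the aged and aged-GA libraries, at 6576 and 6494 CPM, and basophil-gated cells highest, at 12772 and 17095 CPM. The span of AY036118 was narrower than that of Gm42418 in young and aged-GA mice and wider in aged mice. In young mice its 4 leukocyte classes of at least 50 cells lay between 3491 CPM in T-gated and 3847 CPM in monocyte-gated cells, a 1.10-fold span. In aged mice the span was from 464 CPM in plasma-cell-gated to 1003 CPM in basophil-gated cells, and in aged-GA mice from 453 to 1073 CPM in the same classes. Kept red cells lay at 4243, 7634 and 7110 CPM for Gm42418 and at 1527, 949 and 989 CPM for AY036118.

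Gm26917 was highest in T-gated cells in each library. T-gated cells stood at 156 CPM in young (151 to 160), 708 in aged (694 to 723) and 603 in aged-GA mice (594 to 613). B-gated cells stood at 91.6, 274 and 174 CPM, so that the ratio of T to B was 1.70, 2.59 and 3.48. Neutrophil-gated cells were lowest in aged and aged-GA mice, with 39.1 and 70.0 CPM, and the 16 young cells held 3 UMIs. Among T-gated cells the CD8 subset was higher than the CD4 subset in each library, at 184 against 139 CPM, 952 against 443 CPM and 761 against 354 CPM. The CD8 to CD4 ratio was 1.32 (1.22 to 1.43) in young, 2.15 (2.02 to 2.28) in aged and 2.15 (2.04 to 2.26) in aged-GA mice. The CD8 subset was also deeper, with a median of 5967.5, 5928 and 7438.5 UMIs against 4870, 4324 and 5005 in the CD4 subset. Whether depth shaped these ratios was not tested.

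**Figure D2:**
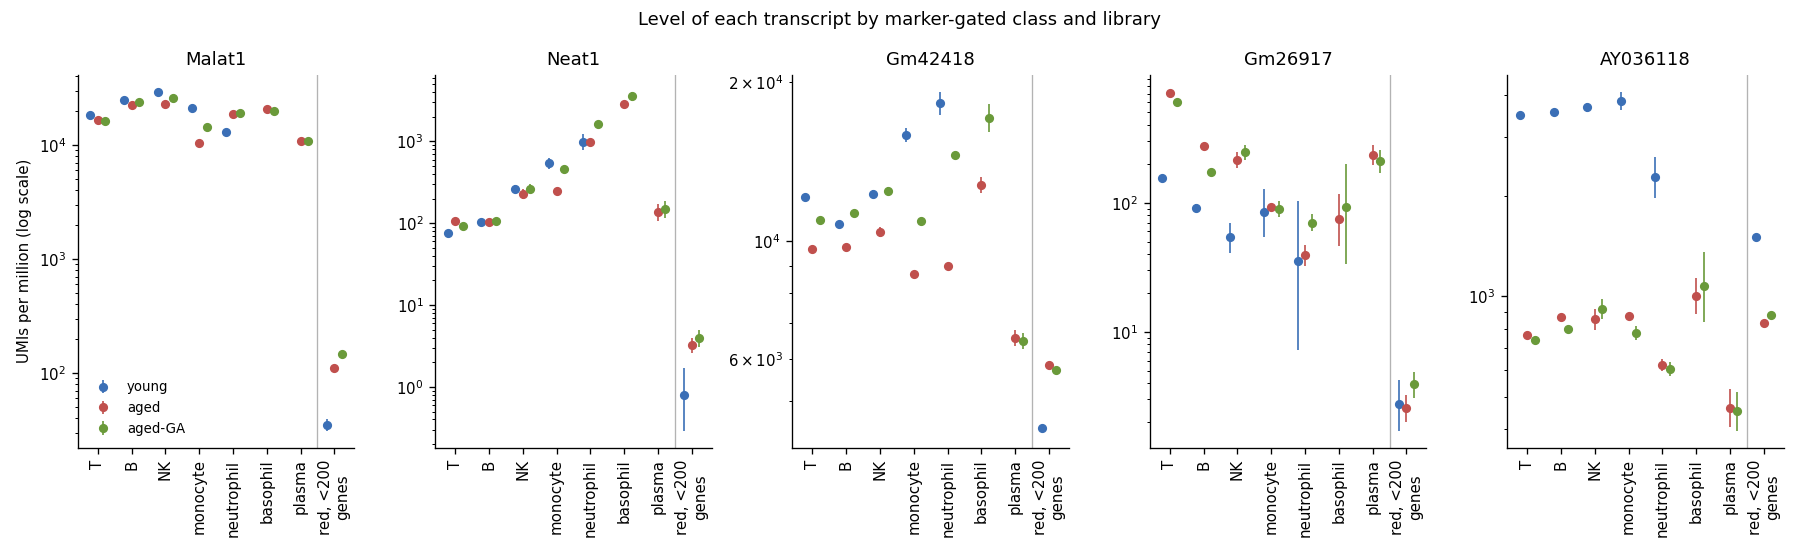
Level of each member in CPM (log axis) by marker-gated class, with red cell barcodes of under 200 genes at the right of the grey line. Points are single libraries and bars are exact Poisson 95% intervals; classes of under 15 cells are not drawn. Neat1 climbs from T-gated to basophil-gated cells, Gm26917 is highest in T-gated cells, and young mice stand above the others for AY036118 in each class drawn.

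Red cell barcodes separated the members into distinct sets. In these barcodes, which hold a median of 95.01% to 96.1% haemoglobin UMIs, Malat1 was low, at 35.2, 110 and 147 CPM in the young, aged and aged-GA libraries. That is 0.20%, 0.69% and 0.88% of its level in kept cells of the same library. Neat1 stood at 0.95%, 1.48% and 2.29% and Gm26917 at 2.24%, 0.85% and 1.27% of their kept-cell levels. Neat1 rested on 6, 90 and 78 UMIs and Gm26917 on 21, 72 and 78 UMIs there. The median gene of at least 50 CPM in kept cells stood at 0.56%, 1.504% and 2.04% of its kept-cell level. Gm26917 was thus above that median in young mice, 310th from the highest of 2000 genes, but below it in aged mice, 2531st of 2632, and in aged-GA mice, 2181st of 2334. Malat1 was near the bottom in each, at 1756th, 2605th and 2299th. Genes with an Rpl or Rps symbol, most of which encode proteins of the ribosome though a few encode S6 kinases, had medians of 0.64%, 1.51% and 1.81% over 77 genes.

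Gm42418 and AY036118 did not follow that pattern. Gm42418 stood at 4437, 5850 and 5729 CPM in red cell barcodes of young, aged and aged-GA mice, which is 40.5%, 63.7% and 54.2% of its kept-cell level. AY036118 stood at 1499, 832 and 876 CPM, or 46.1%, 99.7% and 110% of its kept-cell level. Of the UMIs that were not haemoglobin, Gm42418 alone took 8.91%, 14.2% and 12.1%. Ordered by the red-cell share of the kept-cell level, AY036118 was 69th of 2000 genes, 24th of 2632 and 22nd of 2334 in young, aged and aged-GA mice, and Gm42418 was 74th, 35th and 47th. The ratio of members also differed between the barcodes. In kept cells there were 0.61, 0.57 and 0.63 Gm42418 UMIs per Malat1 UMI, but in red cell barcodes there were 126, 53.0 and 38.9. In red cell barcodes without a UMI of any leukocyte or platelet marker, 769, 3135 and 1901 in number, Gm42418 stood at 40.2%, 62.6% and 54.1% and Malat1 at 0.20%, 0.66% and 0.73% of the kept-cell level. This alternative was chosen after the data were seen. The 2 rows that overlap the rRNA pseudogene were the 2 members that red cell barcodes held at over 40% of the kept-cell level. Gm26917, which lies just outside that pseudogene, was at or below 2.24%. The 2 rows overlap each other, so they are not separate cases, and whether the overlap with the pseudogene shaped these levels was not tested. The part of free RNA in these levels was not tested.

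**Figure D3:**
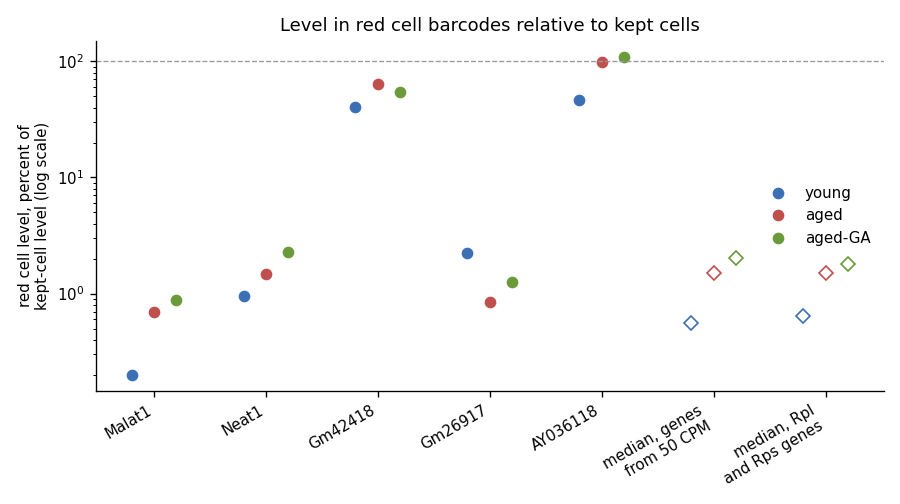
Level of each member in red cell barcodes of under 200 genes as a percentage of its level in kept cells of the same library (log axis). Filled circles are the members and open diamonds the medians over genes of at least 50 CPM and over genes with an Rpl or Rps symbol; the dashed line marks 100%. Gm42418 and AY036118 lie between 40.5% and 110%, and the other members lie at or below 2.29%.

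The comparison of aged with young mice asks how the members differ with age. In T-gated cells the members split: AY036118 was lower in aged mice, Gm26917 was higher, and Malat1, Neat1 and Gm42418 stayed under a log2 ratio of 1 in size. Since AY036118 was chosen for its fall from the young library, its values in every comparison with young mice are a description. AY036118 stood at 3491 CPM in young (3470 to 3512) and 767 in aged T-gated cells (752 to 782), a log2 ratio of -2.19. It was second from the lowest of 9679 genes that had 100 UMIs or more in the pair, between Ddit4 at -2.19 and Gm17056 at -2.12. Gm26917 stood at 156 and 708 CPM, a log2 ratio of 2.18 (2.13 to 2.23), and was 118th from the highest. A member was counted where its log2 ratio reached 1 in size: 2 of the 5 members did, beside 8.7% of all genes tested (7.9% higher and 0.796% lower). One of these 2 is AY036118, so nothing is read from the count. The median gene had a log2 ratio of 0.32, above which Gm26917 and Neat1 lay. Neat1 stood at 0.46, Malat1 at -0.15 and Gm42418 at -0.32, the last from 12123 to 9695 CPM. From the lowest of the 9679 genes, Gm42418 was 683rd, Malat1 1299th and Neat1 6193rd. Malat1 had no settled direction, since its log2 ratio was 0.15 once both libraries had the same mix of mitochondrial bins.

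The same contrast in B-gated cells gave a like split, and since AY036118 was chosen for its fall from the young library, its values there are a description too. AY036118 stood at 3556 CPM in young (3516 to 3595), 865 in aged (850 to 879) and 800 in aged-GA B-gated cells (789 to 811). Its log2 ratio of aged over young was -2.04, the fifth lowest of 8863 genes. Gm26917 stood at 91.6 CPM in young and 274 in aged B-gated cells, a log2 ratio of 1.57. These 2 members passed a log2 ratio of 1, beside 4.87% of genes tested, whose median was 0.26, and nothing is read from this count either. Malat1 with -0.15, Gm42418 with -0.15 and Neat1 with 0.02 did not. NK-gated cells, of 313 young and 244 aged cells, gave log2 ratios of -2.11 for AY036118, from 3675 to 852 CPM, and 1.97 for Gm26917, from 54.1 to 215 CPM. In all, 2.58% of genes tested passed 1 in NK-gated cells.

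Across the 6 classes with at least 15 cells in both libraries, AY036118 was lower in aged than in young mice in 6, and its log2 ratio was past 1 in size in 5. In the kept red cells it was at -0.69, in a class where 79.4% of genes passed 1 and the median gene stood at 1.53. From the lowest of the 3162 genes tested there, AY036118 was 110th. In red cell barcodes of under 200 genes AY036118 was 1499 CPM in young against 832 in aged mice, a log2 ratio of -0.85. Gm26917 was higher in aged mice in 6 of the 6 classes and past 1 in 4, among them the kept red cells at 3.00, on 57 young UMIs. Monocyte-gated cells, with a log2 ratio of 0.12 (-0.48 to 0.72), and neutrophil-gated cells, with 0.15 (-1.504 to 1.80), were the exceptions, and whether they differ from T-gated cells was not tested beyond these counting intervals. In monocyte-gated cells 19.3% of genes passed 1. Malat1 with -1.02 and Neat1 with -1.11 did so there too, but the young cells were nearly all of the Ace or Cd300e subset, 43 of 51 cells. Within that subset the log2 ratios were -0.07 for Malat1 and -0.38 for Neat1, and -2.20 for AY036118. In neutrophil-gated cells, with 16 young cells, Gm42418 passed 1 with -1.02, where 28.1% of genes did.

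Over all kept cells Neat1 was 83.6 CPM in young against 218 CPM in aged mice, a log2 ratio of 1.37, where 18% of genes passed 1. The classes with high Neat1 were also more numerous in aged mice, and fewer cells of a class and less RNA per cell cannot be told apart in such sums. When T-gated, B-gated, NK-gated and monocyte-gated levels were weighted to the mean share of UMIs of each class over the 3 libraries, Neat1 stood at 137 CPM in young against 123 CPM in aged mice, a log2 ratio of -0.16. The log2 ratios of these classes were 0.46, 0.02, -0.21 and -1.11 in that order. The last rested on 51 young cells, nearly all of the Ace or Cd300e subset. Neutrophil-gated and basophil-gated cells, the highest in Neat1, were not in the mix. The same weighting left AY036118 at -2.13 and moved Gm26917 from 1.30 to 1.95.

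**Figure D4:**
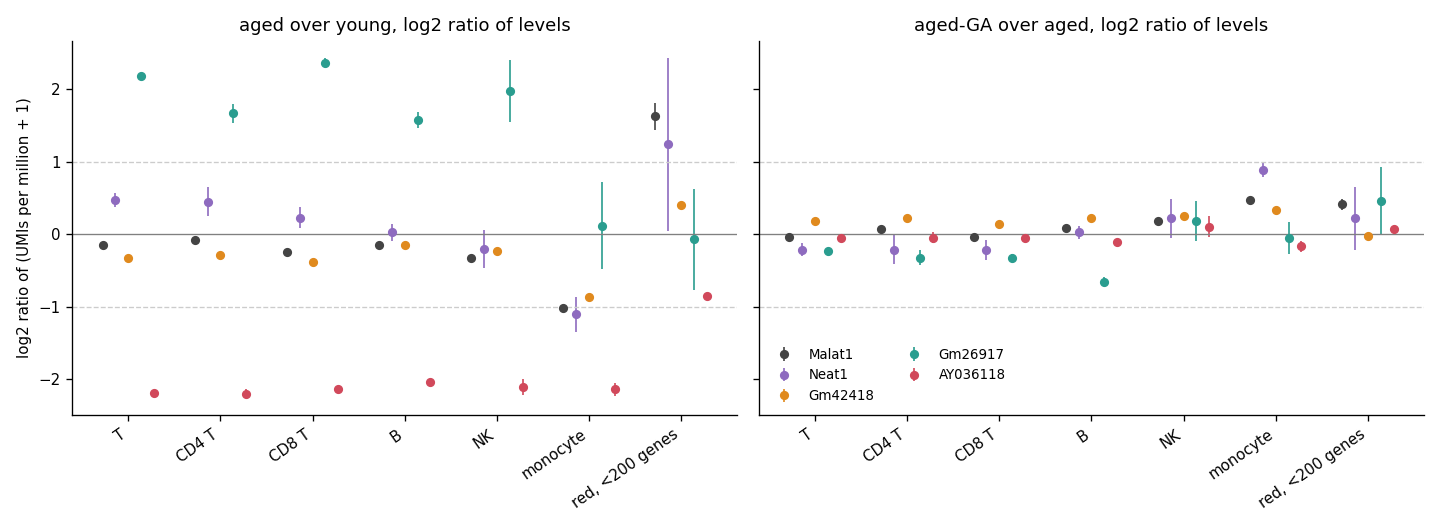
Log2 ratio of each member by class for aged over young mice (left) and aged-GA over aged mice (right). Bars are 95% intervals for counting error and dashed lines mark a log2 ratio of 1 in either direction. AY036118 lies near -2 and Gm26917 above 1 in T-gated, B-gated and NK-gated cells on the left, and all members lie within 1 on the right in the classes drawn.

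The comparison of aged-GA with aged mice asks how the members differ with GA treatment. None of the 5 members reached a log2 ratio of 1 in T-gated cells, where 0.643% of genes did, or in B-gated cells, where 0.289% did. With 1 library per group no tool was run and no p-value exists for this count. AY036118 was at 738 CPM in aged-GA and 767 in aged T-gated cells, a log2 ratio of -0.06, and at -0.11 in B-gated cells. Gm26917 was at -0.23 in T-gated and -0.65 in B-gated cells, from 274 to 174 CPM in the latter, the widest difference of a member in these classes. Gm42418 was slightly higher in aged-GA mice in both, at 0.18 and 0.22. In neutrophil-gated cells Neat1 was higher in aged-GA mice (1642 against 994 CPM), as were Gm42418 (14532 against 8989 CPM) and Gm26917 (70.0 against 39.1 CPM), with log2 ratios of 0.72, 0.69 and 0.83. AY036118 was at -0.04 there. In monocyte-gated cells Neat1 was at 0.89, from 250 to 463 CPM, and Malat1 at 0.48, while the Ly6c2 or Ccr2 subset made up 618 of 1194 aged and 104 of 310 aged-GA cells. Within the Ace or Cd300e subset the log2 ratios were 0.32 (0.14 to 0.49) for Neat1 and 0.06 for Malat1. Within the Ly6c2 or Ccr2 subset Neat1 went from 179 CPM in aged to 376 CPM in aged-GA mice, and Malat1 from 6589 to 7512 CPM. Taken as whole classes, neutrophil-gated and monocyte-gated cells had no member past 1, where 1.17% and 1.51% of genes were. In kept red cells Neat1 was past 1, at -1.54, where 17.6% of genes were and the median gene stood at -0.72.

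Against young mice, aged-GA mice showed the split too. In T-gated cells AY036118 had a log2 ratio of -2.24 and Gm26917 of 1.95 for aged-GA over young mice, and 2 members passed 1, beside 6.63% of genes. In B-gated cells AY036118 was at -2.15 and Gm26917 at 0.91, and 1 member, AY036118, passed 1, beside 3.04% of genes. Nothing is read from these counts. This comparison shares its libraries with the other 2.

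The ratio within the overlapping pair does not depend on the total UMIs. Per 100 Gm42418 UMIs there were 28.8 AY036118 UMIs in young T-gated cells (28.6 to 29.0), 7.91 in aged (7.75 to 8.07) and 6.72 in aged-GA ones (6.62 to 6.82). B-gated cells gave 32.9, 8.87 and 7.06, and NK-gated cells 29.95, 8.17 and 7.36. Red cell barcodes gave 33.8, 14.2 and 15.3. The young library was the highest in each of these classes. Gm26917 per 100 Gm42418 UMIs was 1.28, 7.30 and 5.49 in T-gated cells and 0.06, 0.04 and 0.07 in red cell barcodes.

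In single cells AY036118 was nearly always found in young mice. It had a UMI in 99.9%, 95.7% and 96.7% of young, aged and aged-GA T-gated cells. After each cell was thinned to 500 UMIs, with no T-gated cell left out, the shares were 80.9% (79.8 to 81.9, exact binomial interval), 34.1% (32.2 to 36.1) and 30.1% (28.6 to 31.5). Gm26917 was found in 6.74%, 24.0% and 22.4% of thinned T-gated cells, against 45.1%, 77.8% and 80.8% before thinning. Among T-gated cells with 3% to 5% mitochondrial UMIs and 4000 to 8000 UMIs, AY036118 stood at 3702, 821 and 774 and Gm26917 at 156, 960 and 572 per 1000000 non-mitochondrial UMIs. At 2000 to 4000 UMIs they stood at 4168, 958 and 812 and at 100, 470 and 340, so levels also differed with depth within a library. Whether depth shaped the split was not tested. Across the 5545 young T-gated cells, the share of UMIs of Gm42418 and AY036118 had a Spearman rho of 0.45, and it was 0.25 over 2349 aged and 0.17 over 3887 aged-GA cells. The other pairs of members stayed between -0.17 and 0.19. These are descriptions over cells of 1 library each.

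Mitochondrial share is often read as a sign of cell damage, and it was used to order T-gated cells, including those above the limit of 7.5%. Levels in this paragraph and the next are per 1000000 non-mitochondrial UMIs. Over the step from 3% to 5% up to 5% to 7.5%, the members hardly moved in young and aged-GA mice. Malat1 went from 18993 to 19766 in young and from 16904 to 18546 in aged-GA T-gated cells, but from 17574 to 30207 in aged ones. None of the 5 passed a log2 ratio of 1 in any library over this step, where 0.217%, 7.09% and 0.406% of genes did. Aged mice had only 85 cells in the upper bin, with a median of 2630 UMIs. Against cells under 2%, 2 of 5 members passed 1 in aged mice (Malat1 at 1.08 and Gm26917 at 1.45), where 13% of genes did. In aged-GA mice 2 of 5 passed 1 (Neat1 at 1.51 and Gm26917 at 1.07), where 30.5% of genes did. Cells under 2% were unusual, since haemoglobin took 16.3% of their UMIs in aged and 37.1% in aged-GA mice. With haemoglobin left out of the denominator, 1 and 0 members passed. Young mice had 9 such cells, too few for a value.

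From 10% to 20% all 5 members were higher than at 3% to 5% in T-gated cells of each library. In cells of 10% to 20% mitochondrial UMIs, 160, 61 and 127 cells in young, aged and aged-GA mice, Malat1 reached 39138, 55244 and 55502. Its log2 ratios over cells of 3% to 5% were 1.04, 1.65 and 1.72. Neat1 had log2 ratios of 1.41, 1.41 and 1.46 and Gm26917 of 1.63, 1.60 and 0.82. Gm42418 had 1.65, 0.73 and 1.12 and AY036118 1.08, 0.83 and 1.10. In all, 5, 3 and 4 members passed 1 in young, aged and aged-GA mice, against 22.9%, 47.2% and 31% of genes, with a median gene at 0.34, 0.41 and 0.42. Such cells were shallow, with a median of 1841, 996 and 1389 UMIs. Rpl and Rps genes together were lower in them, at 286357, 100577 and 163008 against 398214, 336071 and 344720 at 3% to 5%. Xist and Lars2, which are not members, were higher too, with log2 ratios of 1.19, 1.87 and 1.45 and of 2.04, 0.99 and 1.51. Beyond 20% the members of the T-gated cells parted. Malat1 went on to 92469 in 94 young and 63402 in 53 aged-GA cells, whereas Gm42418 was lower than at 10% to 20%, going from 39192 to 24683 in young and from 24881 to 10375 in aged-GA cells. AY036118 went from 7492 to 2925 in young cells and from 1591 to 1375 in aged-GA ones, where the counting intervals overlap. Gm26917 went from 492 to 664 and from 1134 to 1275, with overlapping counting intervals in both libraries. In B-gated cells Gm42418 was higher beyond 20%, going from 21877 to 31851 in young (33 cells) and from 22431 to 29384 in aged-GA mice (78 cells). AY036118 went from 5645 to 10832 and from 1657 to 2608 in the same B-gated cells. In B-gated cells Gm26917 had the widest change with mitochondrial share, with log2 ratios of 2.24, 3.12 and 1.499 for 10% to 20% over 3% to 5%. It was second from the highest of 2788 genes in young and 8th of 7391 in aged B-gated cells, where 10.3% and 47.2% of genes passed 1 (12.6% in aged-GA mice).

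**Figure D5:**
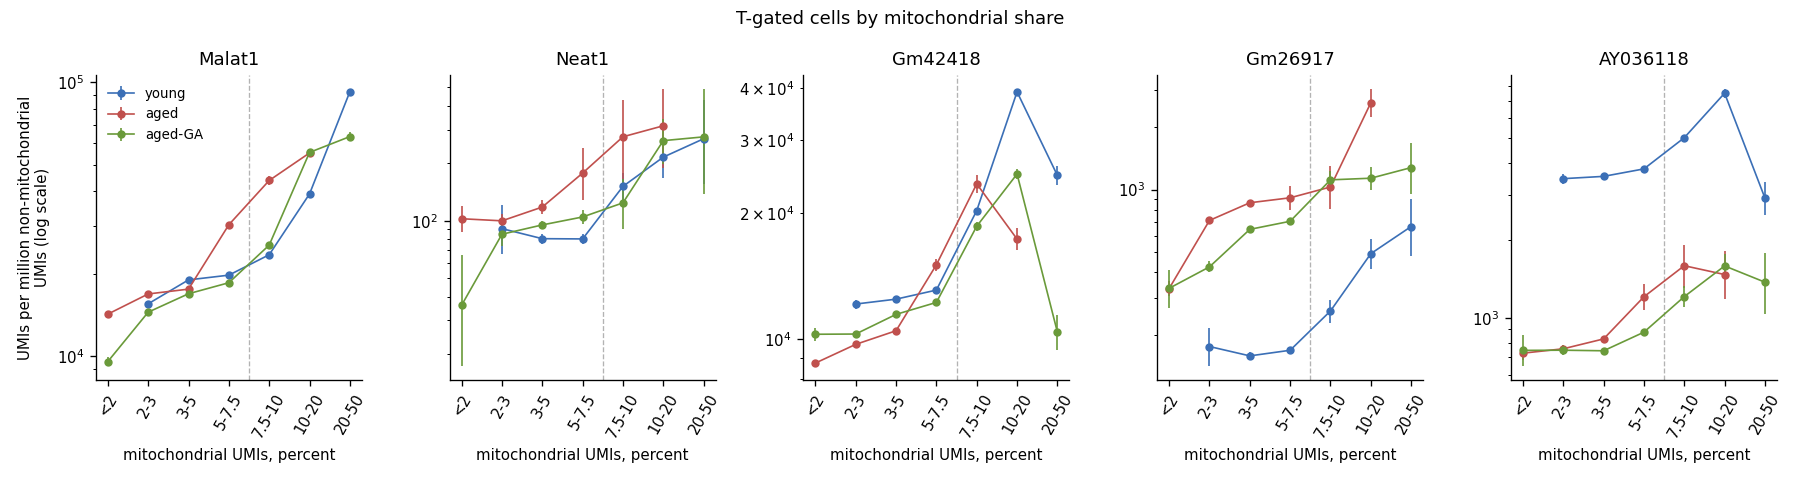
Level of each member in T-gated cells by mitochondrial share, in UMIs per 1000000 non-mitochondrial UMIs (log axis). Points are bins of at least 20 cells in 1 library, bars are exact Poisson 95% intervals, and the dashed line marks the limit of 7.5%. All members are higher at 10% to 20% than at 3% to 5%, and young mice stay above the others for AY036118 and below them for Gm26917 in each shared bin.

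The split between aged and young mice was present within bins of mitochondrial share. For AY036118 this is a description of the fall it was chosen for, in the same cells. Over 5 bins with at least 20 T-gated cells in both libraries, the log2 ratio of aged over young lay between -2.35 and -1.65 for AY036118 and between 1.98 and 2.44 for Gm26917. In B-gated cells it lay between -2.32 and -1.39 and between 1.20 and 2.58. Malat1 in T-gated cells lay between -0.11 and 0.90 and Gm42418 between -1.18 and 0.21, so neither had a settled direction over bins.

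Genes of the same compartments were taken from lists chosen with earlier results known. Of 29 other long noncoding RNA genes, 26 had enough UMIs in T-gated cells, and for aged over young mice 2 were higher past 1 and none lower, with a median log2 ratio of 0.10 against 0.32 over all genes. That count is near the 7.9% of all genes that were higher. The 2 were Mir142hg and Mir155hg, hosts of the microRNAs miR-142 and miR-155. Xist, the noncoding RNA of X inactivation, stood at 759 CPM in young and 716 in aged T-gated cells, and Gas5, a host of small nucleolar RNAs, at 750 and 609 CPM. Of 12 speckle and paraspeckle protein genes, which share bodies with Malat1 and Neat1, 0 of 12 passed 1 in T-gated cells, beside 8.7% of all genes. Tardbp with 48.1 and 94.1 CPM and Srsf1 with 41.6 and 74.8 CPM in young and aged mice came nearest. Of 17 rRNA synthesis and processing genes 0 passed 1, with a median of 0.20 against 0.32 over all genes. Among them 13 were above 0 and 4 below, but the median gene was above 0 too, so nothing is read from this. Polr1b came nearest, with 3.74 and 8.47 CPM in young and aged mice. Npm1, a nucleolar protein and among the 4 below 0, stood at 1426 and 1244 CPM.

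Of 18 other rows that can take rRNA or repeat reads, 14 were found and 4 had enough UMIs in T-gated cells. For aged over young mice 0 of the 4 were past 1, beside 8.7% of all genes. Lars2, a mitochondrial leucyl-tRNA synthetase whose row can take rRNA reads, stood at 463, 283 and 333 CPM in young, aged and aged-GA T-gated cells. In B-gated cells it stood at 443, 282 and 329 CPM. The other 3 tested rows had log2 ratios of aged over young of 0.56 (Cdk8), 0.26 (Cmss1) and -0.04 (Camk1d) in T-gated cells. All 13 mitochondrial mRNAs had a log2 ratio below 0 in aged over young T-gated cells, 2 of them past 1 (mt-Nd2 and mt-Atp6), with a median of -0.74. Of 92 genes with an Rpl or Rps symbol 84 were tested, 2 were lower past 1 (Rpl12 and Rpl17) and the median was -0.30. Over all genes tested in these cells 0.796% were lower past 1, and the median was 0.32.

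Over the 18 sums of a class in a library, the genes most like each member were found by the Pearson correlation of log2 levels among 12157 genes. Points share libraries and depth, so these are descriptions. Neat1 was closest to Smim3 (r = 0.95), Map2k3 (0.95), Riok3 (0.94), Osm (0.93) and Grina (0.93). Malat1 was closest to Ing1 (0.89), Dennd1b (0.89), C730034F03Rik (0.87), Rsrc2 (0.87) and Mob4 (0.85). Gm42418 was closest to Nufip2 (0.90), Rnf2 (0.90), Lars2 (0.90), Ube2d3 (0.88) and Sf3b1 (0.87). Gm26917 was closest to Mlf1 (0.86), Gm32856 (0.86), Mturn (0.83), Aopep (0.83) and Slc16a1 (0.80). AY036118 was closest to Gtf2b (0.84), Rpl10-ps3 (0.79), Gm15013 (0.78), Gm10260 (0.77) and Hyal3 (0.76). Between members the highest r was 0.65, for Malat1 with Gm42418, and Gm42418 with AY036118 had 0.52. Gm26917 had a negative r with each other member, down to -0.64 with Neat1.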

How the data were processed

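PBMCs were profiled with a 3′ droplet kit. The authors mapped reads with Cell Ranger (5.0.0 in the file headers, build mm10 per the processing notes) and deposited UMI counts for each barcode, 1 library per group. Strand handling and annotation release were not given in the sources used here. The members, lists and markers were chosen with earlier results of these data known, and the named genes are the members, those lists and the 5 genes most like each member; Ddit4 and Gm17056 were named after their values were seen.

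The limits on genes and mitochondrial UMIs per cell follow the study's methods, but the numbers of kept cells differ from those the study reports. The study's methods also name an earlier Cell Ranger version than the file headers do. A cell took the class with most of its fixed markers detected, at least 2 and at least 2 more than the next class. Levels are summed UMIs as CPM; log2 ratios used a pseudocount of 1 CPM and only genes that reached 100 UMIs in the pair. Since there is 1 library per group, no significance test was run. The 6% of barcodes with the highest Scrublet scores per library were treated as doublets in an alternative, since the automatic threshold failed. Python 3.11.15, numpy 2.4.6, scipy 1.17.1, pandas 2.3.3 and scanpy 1.11.5 were used. Sequences are from GENCODE vM21, and the position of Rn18s-rs5 is from RefSeq GRCm38.p6.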

Additional observations from a re-analysis of the deposited data

Results flagged for a closer look

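Neat1 moved in opposite directions in T-gated and monocyte-gated cells for aged over young mice. Its log2 ratio was 0.46 in T-gated and -1.11 in monocyte-gated cells, a difference of 1.57, and both counting intervals lay clear of 0. The difference itself was not tested, since each group is 1 library. The young library gave 51 monocyte-gated cells, and within monocytes with Ace or Cd300e the log2 ratio was -0.38.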

How the results depend on the processing

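The counts of members past a log2 ratio of 1 between libraries in T-gated and B-gated cells kept their values under each alternative run: 3 markers, 500 genes, no mitochondrial limit, other denominators, a pseudocount of 10 CPM, no doublets, no shared barcodes and an equal mix of mitochondrial bins. For cells of 5% to 7.5% over under 2% mitochondrial UMIs, a denominator without haemoglobin moved the count from 2 to 1 in aged and from 2 to 0 in aged-GA T-gated cells; young mice gave no value. The log2 ratio of aged over young in T-gated cells ran from -2.23 to -1.99 for AY036118 and from 2.12 to 2.36 for Gm26917. Gm26917 in aged-GA over young B-gated cells ran from 0.84 to 0.96, just under the limit. Thinning to 1000 UMIs raised the share of T-gated cells with AY036118 to 95.05%, 55.2% and 52.0%. The bins of 10% to 20%, the marker-free red cell barcodes and the fixed class mix were added after the data were seen. No paired analysis was possible because each group has 1 library. Depth limits Gm26917 and Neat1 in young neutrophils and in red cell barcodes.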
